A study of Mus musculus with 10 samples.

Results

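The comparison described here is between 2 lines of mouse embryonic fibroblasts that had not been heated, and it asks how far the lines already differed before any heat. Its members are the 2 unheated arrays of the line labelled hsp70 (+/+) or rescue and the 3 unheated arrays of the line labelled hsp70 (-/-) or knockout, 5 of the 10 arrays in the series, chosen by their titles. All cells were seeded in 96-well plates in medium with 10% serum under a gas-permeable membrane, and the unheated cells were harvested at 23 hours. The other 5 arrays, 2 of the rescue-labelled and 3 of the knockout-labelled line, came from preshocked cells, which were heated at 43 °C for 30 minutes after 20 hours and harvested 3 hours later. Lysates of 144 wells were pooled for each array. The labels use both (+/+) and rescue for the same line and do not say how it was made, whether either line is 1 clone, what strain or age of embryo it came from, or whether the arrays of a group were separate cultures. The p-values therefore measure the spread between these arrays, which may be technical.

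Hsp70 is the family of chaperones that bind unfolded stretches of other proteins and help them refold. Its heat-inducible members in the mouse, Hspa1a and Hspa1b, lie side by side, are transcribed at a low level in unstressed cells and are switched on by heat shock factor 1. Fibroblasts are the cells of connective tissue that make collagen and other matrix, and lines of embryonic fibroblasts differ from one another in adhesion molecules, secreted factors and imprinted genes. An imprinted gene is one that is normally read from only the maternal or only the paternal copy.

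Levels are given below as the deposited intensities, which are linear, and differences as log2 of rescue-labelled over knockout-labelled after quantile normalization, so that a positive value is higher in the rescue-labelled line. Median intensities of the 5 unheated arrays lay between 50.7 and 107, with knockout-labelled replicate 3 the highest, and the first principal component of these arrays, with 48.9% of their variance, set that replicate apart. Correlations of normalized values were 0.936 to 0.976 within a line and 0.924 to 0.966 between lines. The 18S ribosomal RNA control probe set at the 3′ end read 138 and 203 in the rescue-labelled arrays against 603 to 1500 in the knockout-labelled ones, and its part in the differences below was not tested. The third 18S probe set, named M, did not overlap either, at 124 and 141 against 517, 377 and 880. The 18S probe set at the 5′ end overlapped, at 1619 and 151 against 746, 1112 and 2206. The fibroblast genes Vim, Col1a2 and Col1a1 were bright in both lines (2119 to 48868), while Thy1 (61.0 to 122) and Dcn (77.5 to 271) were dim. Defining markers of other cell types were mostly dim. The summed intensity of 26 epithelial markers was 582 to 689 in the rescue-labelled arrays, 958 and 985 in knockout-labelled replicates 1 and 2, and 2857 in replicate 3. Of their defining genes Cdh1 read 7.79 to 27.4 in all 5 arrays and Krt18 1.08 to 56.5. Epcam read 33.8 and 104 against 153, 75.7 and 475, and Krt8 40.3 and 49.4 against 9.47, 84.4 and 265, both highest in knockout-labelled replicate 3. Leukocyte markers summed to 1181 to 1233 and 1211 to 2733, and endothelial markers to 991 to 1052 and 1226 to 1981, again highest in replicate 3. These sums are of intensities before normalization, and replicate 3 also had the highest median intensity. Only 6 of 26 epithelial, 4 of 21 leukocyte and 5 of 17 endothelial markers were bright enough to be tested. After normalization Epcam differed by -1.25 log2 and Krt8 by -0.06, and neither was called. Of the 6 tested epithelial markers 0 were above 0 after normalization, with a median of -1.06 log2 beside -0.02 for all genes, and 0 were called. The median was -0.25 for the 4 leukocyte markers, 2 of them above 0, and -0.39 for the 5 endothelial markers, 2 of them above 0. The part of background in these sums was not tested. The part of these markers in the differences below was not tested either, and in pooled lysates fewer cells of a type and less RNA per cell cannot be told apart.

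Hspa1b, a heat-inducible Hsp70 gene, read far below its preshocked level in both unheated lines. Without heat it read higher in the rescue-labelled arrays without passing the test. On the first of its 3 probe sets the intensities were 262 and 196 in the rescue-labelled arrays and 63.2, 106 and 68.8 in the knockout-labelled arrays. On the second they were 390 and 318 against 127, 161 and 111, and on the third 465 and 675 against 220, 477 and 212. The arrays of the lines did not overlap on the first and second probe sets and overlapped on the third. The log2 differences were 1.82 ± 0.36, 1.62 ± 0.37 and 1.07 ± 0.46 (SE), with adjusted p of 0.241, 0.317 and 0.629 by limma over 45037 probe sets, of which 12 (0.0266%) were called. After preshock the same probe sets read 24677 to 43329 in the rescue-labelled arrays. They read 15502 to 39355 in the knockout-labelled arrays, against 63.2 to 477 in the unheated arrays of that line. This goes against the knockout label only as far as the label covers Hspa1b and these probe sets read the deleted sequence. The positions of their probes and of the deletion were not used here, so the signal does not check the labels, and the lines are called by them throughout. Hspa1a had 1 probe set, at 3.49 to 25.8 in the unheated arrays. It stayed dim after preshock in both lines, at 9.72 and 6.57 in the rescue-labelled arrays and 6.31, 22.1 and 8.47 in the knockout-labelled arrays. Whether this probe set reads the Hspa1a transcript was not tested, so no level of Hspa1a is taken from it. The promoter window of Hspa1b (RefSeq, GRCm38.p6, 250 bases before to 50 after the start, chr17:34959189-34959488, minus strand) is shown because it holds the letters read by heat shock factors. Capitals mark the only match to GAANNTTC or TTCNNGAA, the letters of a pair of inverted units of a heat shock element, searched on both strands. Each motif is its own reverse complement.
Hspa1b: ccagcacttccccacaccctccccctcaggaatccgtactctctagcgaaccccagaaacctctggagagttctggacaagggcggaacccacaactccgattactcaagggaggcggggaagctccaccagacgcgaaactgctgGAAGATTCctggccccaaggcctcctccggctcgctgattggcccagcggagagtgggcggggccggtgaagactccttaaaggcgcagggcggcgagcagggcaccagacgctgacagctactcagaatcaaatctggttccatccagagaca
The window of Hspa1a differs from it at 4 of 300 positions and has 1 such match as well. A match was present in 15.1% of all 32851 promoter windows of this length, and in 11.3% of 8912 tested genes with a window.

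Across all genes the unheated lines differed strongly in a short list of genes. Of 10916 genes tested, 46 (0.421%) were called at an adjusted p under 0.05 by limma with Benjamini-Hochberg adjustment, 12 (0.11%) higher and 34 (0.311%) lower in the rescue-labelled line. Of these calls 45 were differences of at least 2-fold. At an unadjusted p under 0.05 there were 675 genes higher (6.18%) and 735 lower (6.73%), and 607 genes differed by at least 2-fold, 189 higher and 418 lower. The normalized values of the lines did not overlap in any of the 46 called genes, and they did not overlap in 3412 of all genes tested (31.3%). In 13 of the calls the dimmer line had a mean below the lowest mean of any gene tested (5.65 log2, an intensity of 50.2), so the size of those differences is uncertain.

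The count of calls depended on the arrays in the fit, while 45 of the 46 genes kept their sign in the alternatives that can move a difference and in which they were tested, Sqor being the exception. Each array has a partner of its line with the adjoining number, and with these pairs as a random block 22 of the 46 stayed called, 4 higher and 18 lower. It was 0 when only the 5 unheated arrays entered the fit (1170 genes at an unadjusted p under 0.05). Without rescue-labelled unheated replicate 1 there were 11 calls, 8 of them among the 46, and without replicate 2 there were 3, all among the 46. Without knockout-labelled unheated replicate 1, 2 or 3 there were 15, 7 or 22 calls, of which 12, 6 and 18 were among the 46. Without a preshocked array, which in these fits changes only the estimate of the spread, there were 9 calls for either rescue-labelled replicate, all among the 46, and 43, 17 or 9 for knockout-labelled replicates 1, 2 and 3, of which 36, 16 and 9 were among the 46. Without the knockout-labelled pair numbered 5 and 6, an alternative chosen after the data were seen, 85 genes were called, 38 higher and 47 lower, and 33 of the 46 were among them. Centring arrays on their medians moved the median of all genes from -0.02 to 0.50 log2 and turned the balance of calls to 19 higher and 13 lower. Phlda2, Mapk12 and Fez1 were called in each of the 10 fits that left out 1 array.

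**Figure D1:**
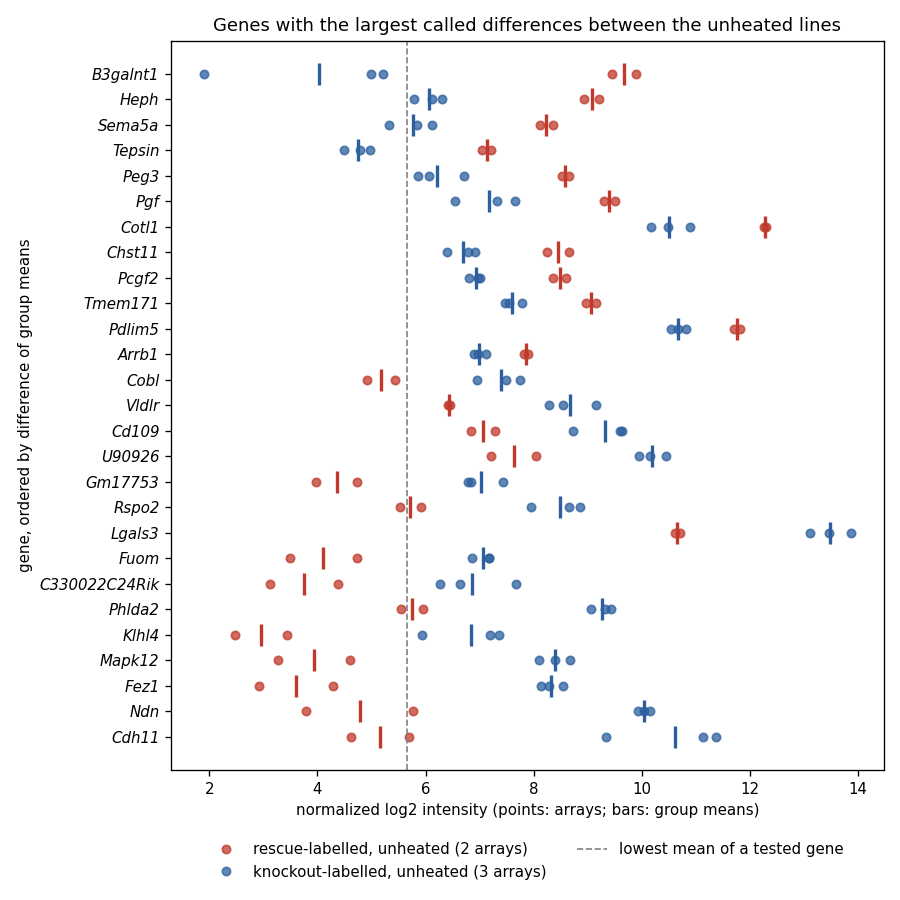
Normalized log2 intensity (horizontal axis) of the 12 called genes that were higher and the 15 most reduced called genes that were lower in the rescue-labelled line, with a point for each unheated array, a bar at each group mean and a dashed line at the lowest mean of a tested gene. Every gene shows the 2 rescue-labelled points apart from the 3 knockout-labelled points, and among others in B3galnt1, Cdh11, Ndn, Fez1 and Mapk12 the mean of the dimmer line lies left of the dashed line.

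The enzyme gene B3galnt1, whose product adds N-acetylgalactosamine to make the glycolipid globoside, had the largest positive difference. Its intensities were 748 and 969 in the rescue-labelled arrays and 3.09, 38.5 and 64.3 in the knockout-labelled arrays, with a difference of 5.64 ± 0.84 log2 (SE, adjusted p = 0.0382, and 0.142 with the pair block). After normalization the knockout-labelled values were 1.89, 4.99 and 5.22 log2, all below the lowest mean of any gene tested (5.65 log2). The size of this difference is therefore uncertain. Only the rescue-labelled values, 9.45 and 9.90 log2, lay above that level. Heph, which encodes hephaestin, a ferroxidase that works with the iron exporter ferroportin, read 639 and 489 against 47.6, 79.8 and 128. That is 3.01 ± 0.25 log2 (adjusted p = 0.00335), and it was called in 9 of 10 fits without 1 array and with the pair block. Of 17 genes of iron handling tested Heph was the only call, and ceruloplasmin (Cp), the related copper ferroxidase, read 3187 and 2477 against 1206, 1216 and 2087 (0.93 ± 0.35 log2, adjusted p = 0.325).

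Secreted and guidance factors were among the genes that were higher. Pgf, placental growth factor, a ligand of the receptor Flt1, read 770 and 631 against 184, 171 and 146, a difference of 2.23 ± 0.30 log2 (adjusted p = 0.0303, and 0.117 with the pair block). The lines did not overlap, and all 5 values were well above the dim range. Sema5a, a membrane-bound semaphorin, read 350 and 268 against 34.6, 66.7 and 115 (2.48 ± 0.28 log2, adjusted p = 0.0197). It was the only call among 41 axon guidance genes, where 10 others were lower at an unadjusted p under 0.05 and 1 other was higher. Of all genes 6.73% were lower and 6.18% higher at that threshold. Plxna3, a semaphorin coreceptor, read 190 and 266 against 363, 538 and 557 (-1.01 ± 0.21 log2, adjusted p = 0.104), so Sema5a ran against most of its list.

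Cotl1, an actin-filament binding protein of the coactosin family, read 4870 and 4999 against 1418, 1167 and 1851 (1.76 ± 0.26 log2, adjusted p = 0.0349). All of its 5 other bright probe sets had the same sign, 2 of them at an unadjusted p under 0.05. Pdlim5, a PDZ and LIM protein that binds alpha-actinin, read 3334 and 3685 against 1816, 1508 and 1613 (1.09 ± 0.14 log2, adjusted p = 0.0303). The 6 other bright probe sets of Pdlim5 had the same sign as well, 4 of them at an unadjusted p under 0.05. Chst11, a chondroitin 4-O-sulfotransferase, read 324 and 399 against 72.3, 133 and 165 (1.75 ± 0.21 log2, adjusted p = 0.026, and 0.0665 with the pair block). Pcgf2, a Polycomb ring finger protein, Tmem171, Tepsin, an accessory protein of the AP-4 coat, and Arrb1, a beta-arrestin that uncouples receptors from G proteins, had differences of 1.55, 1.47, 2.38 and 0.86 log2, with adjusted p between 0.0289 and 0.0424. None of these 4 stayed called with the pair block (0.057 to 0.117).

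Cdh11 and Ndn, described with the imprinted genes below, had the most negative differences, in an order that changed between settings. Cdh11 encodes cadherin-11, a cell adhesion molecule of mesenchymal cells, and read 42.5 and 18.6 in the rescue-labelled arrays and 2265, 2642 and 698 in the knockout-labelled arrays, a difference of -5.45 ± 0.74 log2 (SE, adjusted p = 0.0303). Its second probe set was near 0 in the rescue-labelled arrays, at 0.641 and 0.739, and read 96.0, 152 and 55.4 in the others. Fez1, an adaptor that links cargo to kinesin, read 6.86 and 14.7 against 353, 332 and 335 (-4.71 ± 0.37 log2, adjusted p = 0.00335). Mapk12, the p38 gamma kinase, read 20.3 and 6.85 against 392.5, 290 and 391 (-4.45 ± 0.37 log2, adjusted p = 0.00335). On its second, dim probe set the lines overlapped (35.6 and 2.36 against 40.5, 38.4 and 29.5), and with the mean of both probe sets the difference was -2.86 log2 and was not called. For both genes the rescue-labelled values were at the level of dim probe sets, and the 3 knockout-labelled values lay close together. Klhl4, a kelch-like gene of the X chromosome, read 9.90 and 3.75 against 148, 159 and 103 (-3.88 ± 0.49 log2, adjusted p = 0.0299, and 0.0514 with the pair block).

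Lgals3, which encodes galectin-3, a lectin that binds beta-galactosides at the cell surface and in the matrix, was bright in both lines and so had no floor to limit it. Its intensities were 1606 and 1709 in the rescue-labelled arrays and 12485, 8385 and 11594 in the knockout-labelled arrays, a difference of -2.83 ± 0.26 log2 (adjusted p = 0.00506, and 0.00932 with the pair block). It was called in 8 of 10 fits without 1 array. Vldlr, the receptor for very low density lipoprotein and reelin, read 74.4 and 73.2 against 554, 393 and 368 (-2.23 ± 0.25 log2, adjusted p = 0.0197). Cd109, a membrane-anchored protein that binds transforming growth factor beta, read 152 and 100.2 against 762, 811 and 481 (-2.25 ± 0.33 log2, adjusted p = 0.0349). Ifitm10, of the interferon-induced transmembrane family, read 15.5 and 15.3 against 74.3, 77.3 and 138 (-2.06 ± 0.18 log2, adjusted p = 0.00361).

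Rspo2, a secreted R-spondin that strengthens Wnt signals, read 37.5 and 47.4 against 445, 420 and 303 (-2.77 ± 0.44 log2, adjusted p = 0.048, and 0.135 with the pair block). Its 1 other bright probe set had the opposite sign. It was the only call of 32 genes of Wnt signalling, 3 of which were higher and 6 lower at an unadjusted p under 0.05, Rspo2 included. Over all genes these shares were 6.18% and 6.73%. Kitl, stem cell factor, the ligand of the receptor Kit, read 587 and 830 against 1864, 1820 and 1966 (-1.5002 ± 0.22 log2, adjusted p = 0.0349), and its 3 other bright probe sets had the same sign. Of 40 genes of the FGF, PDGF and EGF families and related ligands, Pgf and Kitl were the 2 calls, in opposite directions.

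The other called genes that were lower in the rescue-labelled line were C330022C24Rik, Fuom, Gm17753, U90926, Cobl, Chst1, Adgrf5, Kctd15, Tmem45a, Bicc1, Endod1, Syngr4, Timp3, Sbsn, Acta1, Trpm6, Ckb, Ephx1, Sqor, Mrpl39, Itga6 and Slc4a4, besides the imprinted pair described next, and those past the 15 most reduced are listed to make the count complete. With the pair block, C330022C24Rik, Fuom, Cobl, Adgrf5, Tmem45a, Endod1, Syngr4, Trpm6, Sqor and Slc4a4 lost their calls, with adjusted p between 0.0514 and 0.204. Chst1, a keratan sulfate sulfotransferase, read 293 and 193 against 1312, 986 and 831 (-2.06 ± 0.31 log2, adjusted p = 0.0371), opposite in sign to Chst11. These were the 2 calls among 64 tested genes of the list of glycan transferases used here, which does not hold B3galnt1. At an unadjusted p under 0.05, 4 of the 64 were higher and 7 lower, beside 6.18% and 6.73% of all genes. Ckb, the brain form of creatine kinase, read 801 and 804 against 1694, 1731 and 2080 (-1.25 ± 0.19 log2, adjusted p = 0.041). Bicc1, an RNA-binding protein, read 234 and 250.2 against 664, 751 and 884 (-1.61 ± 0.21 log2, adjusted p = 0.0303), with its 2 other bright probe sets lower at an unadjusted p under 0.05. U90926, a transcript named by an accession, read 142 and 253 against 1384, 1005 and 1166 (-2.55 ± 0.37 log2, adjusted p = 0.0349, and 0.0514 with the pair block).

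Of 70 imprinted genes on the array, 38 were tested and 3 were called, which is 7.89% beside 0.421% of all genes. The list was drawn up with earlier results of these data known. Ndn, necdin, a growth suppressor read from the paternal copy in the region that is lost in Prader-Willi syndrome, had intensities of 45.2 and 10.2 in the rescue-labelled arrays and 1134, 1077 and 1009 in the knockout-labelled arrays, a difference of -5.26 ± 0.56 log2 (SE, adjusted p = 0.0147). Other probe sets of Ndn were further apart. On the most extreme one the rescue-labelled arrays read 0.442 and 2.12 and the knockout-labelled arrays 1414, 1451 and 1582. Of its 8 probe sets all had a negative difference, and the 4 other bright ones passed an unadjusted p of 0.05. The preshocked arrays read 5.02 and 0.635 against 1466, 1397 and 1467 on that same probe set. Phlda2, a maternally read gene that restrains placental growth, had 1 probe set, with 37.9 and 49.2 against 673, 555 and 689 (-3.52 ± 0.26 log2, adjusted p = 0.00335). Peg3, a zinc finger gene read from the paternal copy, was the opposite, with 395 and 399 against 50.3, 77.1 and 158 (2.37 ± 0.38 log2, adjusted p = 0.0474, and 0.0841 with the pair block). Its call was kept in 2 of 10 fits without 1 array, and its 1 other bright probe set had the same sign. These 3 genes lie on chromosome 7 but far apart and did not move in one direction. They were not the only calls there. Of 807 genes tested on chromosome 7, 10 were called (1.24%, beside 0.421% of all genes), 2 higher and 8 lower. This was the highest share of any chromosome. Between 140 and 160 Mb, where Phlda2 lies, 4 of 70 genes were called, all lower. At an unadjusted p under 0.05 by limma, 0 of these 70 were higher and 10 lower. Whether these calls share a cause was not tested.

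The promoter windows of the 3 called imprinted genes (RefSeq, GRCm38.p6) are shown with CpG dinucleotides in capitals. Methylation of CpG takes part in imprinting, at the promoter of a gene or elsewhere. They are Ndn at chr7:62348027-62348326 on the plus strand, Phlda2 at chr7:143502475-143502774 on the minus strand and Peg3 at chr7:6730370-6730669 on the minus strand.
Ndn: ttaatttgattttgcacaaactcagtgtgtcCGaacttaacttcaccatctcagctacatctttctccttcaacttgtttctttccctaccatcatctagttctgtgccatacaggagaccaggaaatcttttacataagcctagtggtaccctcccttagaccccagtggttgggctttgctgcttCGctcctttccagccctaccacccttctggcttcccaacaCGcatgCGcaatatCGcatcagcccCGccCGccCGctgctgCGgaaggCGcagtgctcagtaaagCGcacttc
Phlda2: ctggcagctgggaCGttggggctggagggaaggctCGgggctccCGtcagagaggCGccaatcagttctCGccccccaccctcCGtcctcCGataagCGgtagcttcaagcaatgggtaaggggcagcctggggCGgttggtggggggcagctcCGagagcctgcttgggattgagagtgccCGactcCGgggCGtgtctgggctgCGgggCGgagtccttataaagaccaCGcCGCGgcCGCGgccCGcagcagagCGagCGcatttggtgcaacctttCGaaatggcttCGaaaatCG
Peg3: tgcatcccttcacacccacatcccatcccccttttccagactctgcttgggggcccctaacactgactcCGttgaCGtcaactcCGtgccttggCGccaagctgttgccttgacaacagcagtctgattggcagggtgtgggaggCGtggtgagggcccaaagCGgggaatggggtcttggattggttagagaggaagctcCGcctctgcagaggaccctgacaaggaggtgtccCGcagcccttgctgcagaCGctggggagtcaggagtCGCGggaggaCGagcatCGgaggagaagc
Phlda2 has 26 CpG in its window, Peg3 13 and Ndn 11. Among the 35 called genes with a window, the median was 13 CpG, beside 21 in the 8912 tested genes with one. The ratio of observed to expected CpG was at least 0.6 in 17 of these 35 (48.6%), in 6 of the 8 that were higher and 11 of the 27 that were lower, beside 75.2% of all. This is a description of the first listed window of each gene, and no methylation was measured here.

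**Figure D2:**
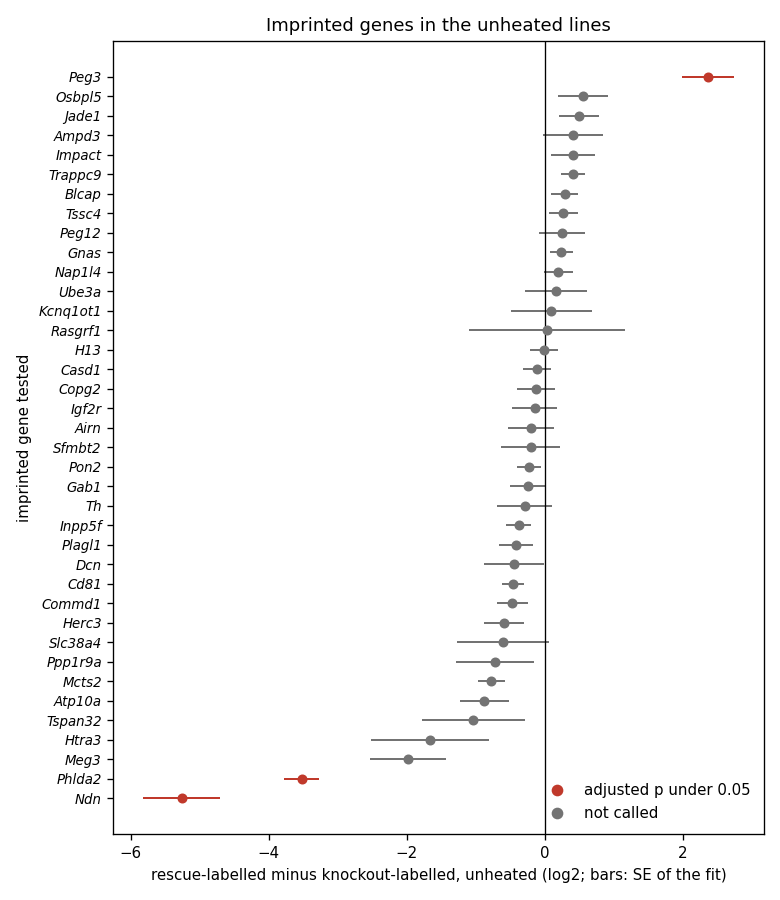
Log2 difference between the unheated lines (horizontal axis, rescue-labelled minus knockout-labelled, bars are SE of the fit) for the 38 imprinted genes tested. Ndn, Phlda2 and Peg3 were called and stand outside the range of the others, of which Meg3 comes closest to Phlda2 at -1.98.

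Imprinted genes that were not called included Meg3, a maternally read noncoding RNA, at 50.9 and 9.45 against 113, 106 and 167 (-1.98 ± 0.55 log2, adjusted p = 0.197). Mcts2 and Atp10a differed by -0.77 and -0.88 log2 (adjusted p = 0.165 and 0.353). Over the 38 genes the median difference was -0.20 log2, beside -0.02 for all genes tested, and 14 of them were above 0.

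Adhesion and matrix genes held 3 calls, all lower in the rescue-labelled line, as were 34 of the 46 calls over all genes (0.421% of genes tested). At an unadjusted p under 0.05, 3 of 20 cadherins and protocadherins were higher and 5 lower. For 41 adhesion molecules these counts were 5 and 5, and for 35 matrix proteases and inhibitors 2 and 5. Over all genes the shares were 6.18% and 6.73%. Cdh11 was the only call of 20 cadherins and protocadherins. Pcdhb17, of the clustered beta protocadherins, read 223 and 209 against 31.6, 66.6 and 121 (2.03 ± 0.33 log2, adjusted p = 0.0535), just past the threshold. Itga6, the integrin alpha chain of laminin receptors, was the only call of 41 adhesion molecules, with 2355 and 2136 against 4764, 4705 and 4354 (-1.10 ± 0.15 log2, adjusted p = 0.0303, and 0.0463 with the pair block). Timp3, a matrix-bound inhibitor of metalloproteinases, was the only call of 35 matrix proteases and inhibitors, with 766 and 450.0 against 1566, 1606 and 1678 (-1.51 ± 0.22 log2, adjusted p = 0.0349, and 0.0536 with the pair block). The gelatinase gene Mmp2 read 3473 and 2529 against 5096, 4254 and 5287 (-0.75 ± 0.24 log2, adjusted p = 0.254).

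Among 20 collagen chains 0 were called by limma, with 4 higher and 2 lower at an unadjusted p under 0.05. Of all genes 6.18% were higher and 6.73% lower at that threshold. The paired basement membrane chains Col4a1 and Col4a2 were both on the higher side. Col4a1 read 2615 and 2408 against 560, 549 and 1272 (1.77 ± 0.45 log2, adjusted p = 0.171), and Col4a2 read 1369 and 973 against 480, 349 and 677 (1.26 ± 0.33 log2, adjusted p = 0.182). Of 55 other matrix genes 0 were called by limma, with 6 higher and 7 lower at an unadjusted p under 0.05. Lox, lysyl oxidase, which crosslinks collagen and elastin, had the smallest p, with 2263 and 2014 against 4245, 3568 and 3920 (-0.92 ± 0.15 log2, adjusted p = 0.0539). Several members in these lists were named after their values were seen, namely Mmp2, Col4a2, Pcdhb17, Meg3, Mcts2, Atp10a, Plxna3 and Cp.

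The actin list had 1 call in each direction and a lean to one side below the threshold. Of 43 genes of the actin cytoskeleton and myofibroblasts, Pdlim5 was called as higher and Acta1 as lower. Acta1, skeletal alpha-actin, read 189 and 157 against 488, 402 and 618 (-1.41 ± 0.20 log2, adjusted p = 0.0349, and 0.117 with the pair block). At an unadjusted p under 0.05, 13 of the 43 were higher and 1, Acta1, was lower, beside 6.18% and 6.73% of all genes. The smooth muscle actin gene Acta2 was bright in both lines, at 14140 and 15999 against 23238, 15296 and 12616, and its raw values overlapped.

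Detoxifying enzymes held 1 call of 47, Ephx1, the microsomal epoxide hydrolase, with 180 and 196 against 423, 426 and 565 (-1.21 ± 0.17 log2, adjusted p = 0.0349, and 0.0558 with the pair block). At an unadjusted p under 0.05, 4 of the 47 were higher and 12 lower, beside 6.18% and 6.73% of all genes. Larger but more variable differences were those of Gpx7, a glutathione peroxidase of the endoplasmic reticulum (-3.003 ± 0.73 log2, adjusted p = 0.149), Aldh3a1, an aldehyde dehydrogenase (-2.47 ± 0.52, adjusted p = 0.113), and Cyp1b1, a cytochrome P450 (-2.46 ± 0.58, adjusted p = 0.142), picked after their values were seen. Cyp1b1 read 226 and 147 against 1611, 1515 and 521. The lines did not overlap, and knockout-labelled replicate 3 was the lowest of its group.

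Like Hspa1b, the other heat shock genes had no call, which does not show that their levels were alike. At an unadjusted p under 0.05, 6.18% of all genes were higher and 6.73% lower. Of 36 cochaperones and other heat shock proteins 0 were called by limma, with 2 higher and 1 lower at an unadjusted p under 0.05. Dnajb4, an Hsp40 cochaperone, had the smallest p, with 1065 and 1100 against 1653, 1598 and 1459 (-0.58 ± 0.17 log2, adjusted p = 0.227). Of 12 genes of the Hsp70 and Hsp110 family, Hspa1b among them, 0 were called, with 1 higher and 2 lower at an unadjusted p under 0.05. Hspa13 had the smallest p of this family, with 2482 and 3191 against 4010, 3698 and 3497 (-0.46 ± 0.15 log2, adjusted p = 0.275). Of 26 tested genes that lie beside Hspa1b in the MHC class III region 0 were called by limma, with 0 higher and 2 lower at an unadjusted p under 0.05, and Ddah2 had the smallest p (-0.63 ± 0.23 log2, adjusted p = 0.318).

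Growth control and cell cycle genes had no call. Cdkn2a, which encodes the p16 and p19 ARF growth inhibitors and is often deleted in immortal fibroblast lines, was read in both lines, at 1113 and 769 against 543, 548 and 531 (0.80 ± 0.22 log2, adjusted p = 0.192). Of 33 genes of G2 and M phase 0 were called by limma, with 1 higher and 1 lower at an unadjusted p under 0.05, and of 34 genes of S phase 0 were called, with 0 higher and 1 lower. The immediate early genes had 0 calls of 31 by limma, and 7 were higher and 1 was lower at an unadjusted p under 0.05, beside 6.18% and 6.73% of all genes, with a median of 0.31 log2 in unheated and -0.04 in preshocked arrays. Klf2, a transcription factor of this list, read 1143 and 978 against 691, 581 and 486 (0.89 ± 0.21 log2, adjusted p = 0.143).

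The preshocked arrays share the normalization, the choice of probe sets and the estimate of the spread with the unheated comparison, and their own intensities give another line difference. All 46 called genes had the same sign there, 44 of them with an unadjusted p under 0.05 (14% of all genes tested had one, in either direction) and 45 with values that did not overlap (33% of all genes). Of 10916 genes 37 were called in preshocked arrays (0.339%), 11 higher and 26 lower, and 21 genes were called in both, which is 45.7% of the unheated and 56.8% of the preshocked calls. Over all genes 80.6% had the same sign in both, with a Pearson correlation of 0.740 across genes, which are not independent. Paired arrays of adjoining numbers deviated together, so the preshocked arrays are not wholly separate evidence. The change of the line difference with preshock was called in 0 genes (0%) by limma, with 103 at an unadjusted p under 0.05. In 38 of the 46 genes the preshocked difference was the smaller one, with a median ratio of 0.86. Genes chosen for a large unheated difference are likely to show a smaller one elsewhere from that choice alone, so nothing is read from this count. Pgf kept the order of the lines, at 2651 and 3531 in preshocked rescue-labelled arrays against 1173, 1066 and 985 (1.45 ± 0.30 log2, adjusted p = 0.104). Klhl4 had -3.88 log2 unheated and -1.74 preshocked, and Gm17753 had -2.66 and -0.46, with no change of either called.

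**Figure D3:**
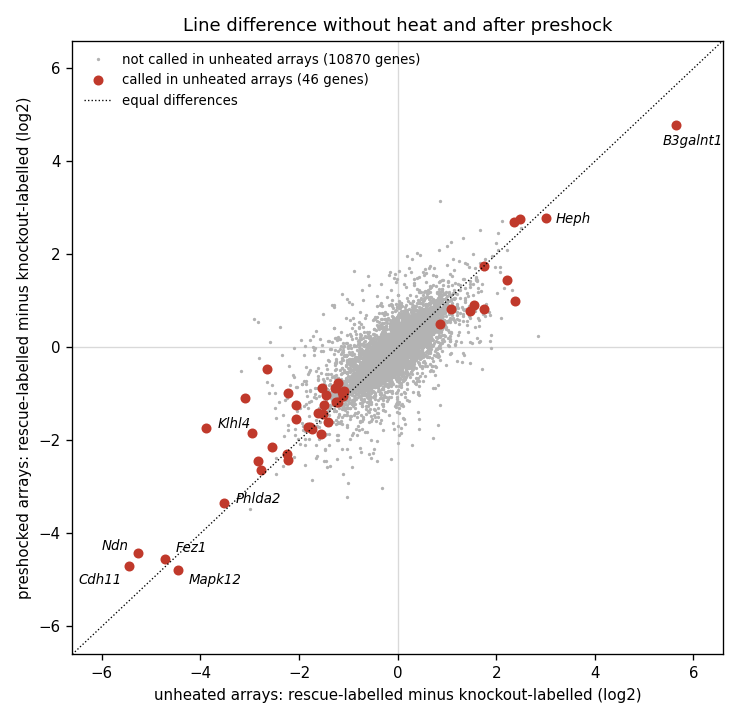
Log2 difference between the lines in unheated arrays (horizontal axis) and in preshocked arrays (vertical axis) for 10916 genes, with the 46 genes called in unheated arrays in red and a dotted line where both differences are equal. All 46 lie in the lower left or upper right, and B3galnt1, Heph, Phlda2, Fez1, Mapk12, Ndn and Cdh11 lie near the dotted line.

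The line difference also varied with the place of genes in the genome, in small shifts shared by many genes. Genes were placed by RefSeq, and medians are relative to the median of all genes tested. Chromosomes 3, 13 and 1 had medians of 0.22, 0.20 and 0.17 log2 over 555, 412 and 616 genes, and chromosome 17 had -0.19 over 530 genes. Of 20 chromosomes all had the same sign in preshocked arrays. Over the reported setting and the 12 alternatives that can move an unheated difference, chromosome 3 lay between 0.19 and 0.25 and chromosome 17 between -0.21 and -0.14. Divided into stretches of 20 Mb, chromosomes 1, 3 and 13 had all 10, 8 and 6 stretches above 0, and chromosomes 2, 15 and 17 had 0 of 10, 6 and 5 above 0. Some chromosomes with smaller medians were as one-sided. Chromosomes 14 and 19 had all 4 and 3 stretches above 0. Chromosomes 10 and 18, with medians of -0.02 and -0.05, had 0 of 7 and 5 above 0. No test was made, since genes of a stretch are not independent.

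**Figure D4:**
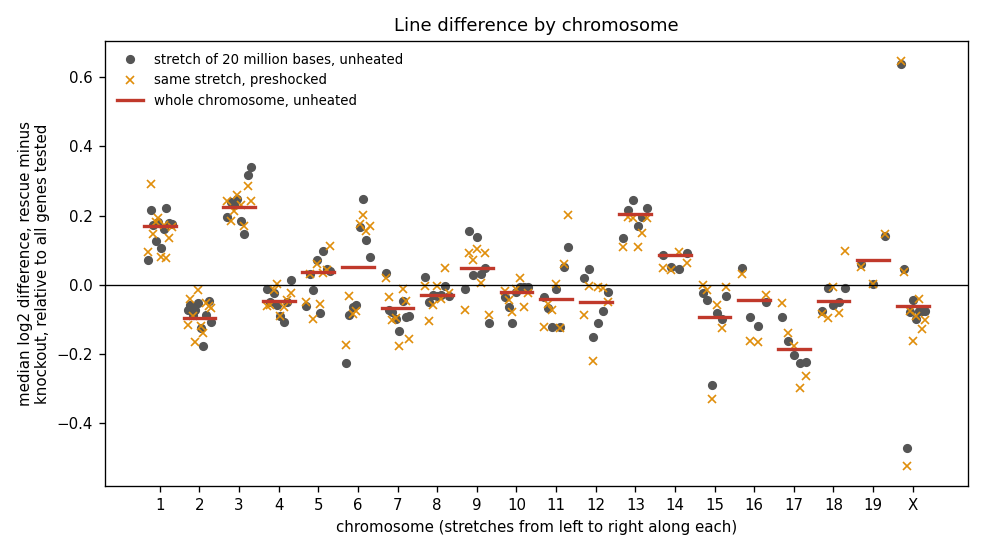
Median log2 difference between the lines relative to all genes tested (vertical axis) for each stretch of 20 Mb, ordered along each chromosome (horizontal axis), in unheated (dots) and preshocked arrays (crosses), with a red bar for the whole chromosome unheated. The first and the third stretch of the X chromosome stand apart at 0.64 and -0.47, and chromosome 6 changes sign along its length.

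The X chromosome had a median of -0.06, but 2 of its stretches lay at the ends of the whole range. In the first stretch the median of 46 genes was 0.64 log2, a 1.56-fold higher level in the rescue-labelled line, with 42 genes above the all-gene median, 25 higher and 0 lower at an unadjusted p under 0.05, and 0 called by limma. The preshocked median was 0.65. The genes with the smallest p there were Tfe3, a transcription factor of lysosome genes, at 1270 and 1013 against 585, 555 and 660 (0.93 ± 0.16 log2, adjusted p = 0.0644), and Hdac6, a cytoplasmic deacetylase, at 850 and 501 against 267, 213 and 313 (1.37 ± 0.25 log2, adjusted p = 0.0776). Med14, a subunit of the Mediator complex, read 2285 and 2287 against 975, 1229 and 1244 (0.99 ± 0.20 log2, adjusted p = 0.104). In the third stretch of the X chromosome the median of 33 genes was -0.47 log2, 1.39-fold lower, with 2 genes above the all-gene median, 0 higher and 14 lower at an unadjusted p under 0.05, and 0 called. The preshocked median was -0.52. Hs6st2, a heparan sulfate 6-O-sulfotransferase, read 1946 and 1898 against 3517, 3430 and 2838 (-0.81 ± 0.14 log2, adjusted p = 0.0598), and Gpc4, a heparan sulfate proteoglycan of the membrane, read 472 and 572 against 977, 947 and 1120 (-0.999 ± 0.17 log2, adjusted p = 0.0629). The other 7 stretches of the X chromosome are not among the 3 highest or 3 lowest of the 136 stretches. These genes and stretches were named after their values were seen.

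The rest of the 6 outermost stretches were on chromosomes 3, 6 and 15. The seventh and the eighth stretch of chromosome 3 had medians of 0.32 and 0.34 log2, with 55 of 62 and 35 of 48 genes above the all-gene median, and the eighth holds Pdlim5. The third stretch of chromosome 15 had a median of -0.29, with 8 of 43 genes above the all-gene median, and holds Rspo2. The first stretch of chromosome 6 had -0.23, with 9 of 39 above. The other 130 stretches lay between -0.23 and 0.25, and 126 of 136 had the same sign in preshocked arrays. By array, the first stretch of the X chromosome stood at 0.37 and 0.38 in the rescue-labelled arrays and at -0.34, -0.29 and -0.11 in the knockout-labelled arrays, and the third at -0.41 and -0.23 against 0.25, 0.25 and 0.05. Knockout-labelled replicate 3 was the nearest to 0 of its group in both. The arrays of the lines did not overlap in 74 of 136 stretches (54.4%).

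**Figure D5:**
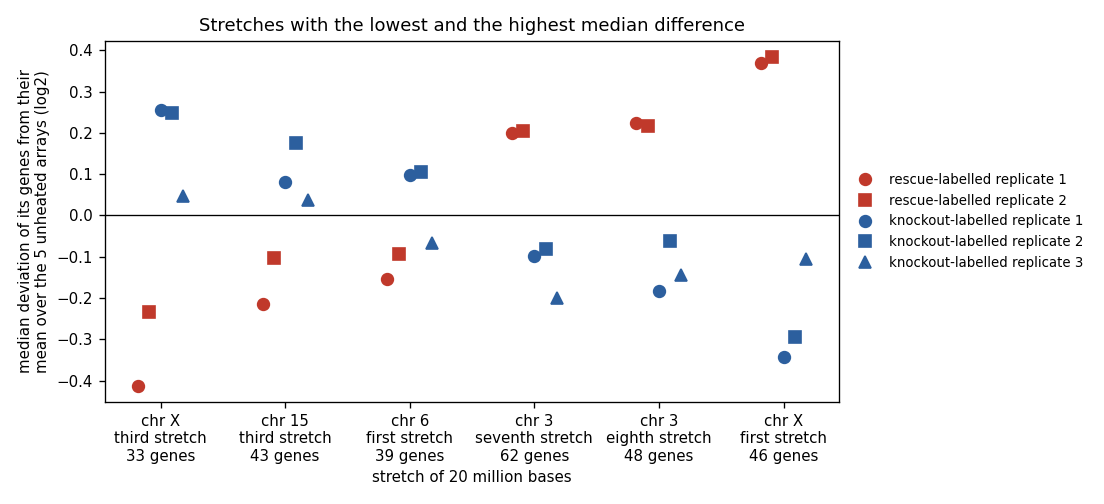
Median deviation of the genes of a stretch from their mean over the 5 unheated arrays (vertical axis, log2) for the 3 stretches with the lowest and the 3 with the highest median difference (horizontal axis), with a symbol for each array. The red rescue-labelled symbols lie apart from the blue knockout-labelled ones in all 6, and on the other side of 0 except in the first stretch of chromosome 6, where knockout-labelled replicate 3 is at -0.07 and the rescue-labelled arrays are at -0.15 and -0.09.

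Of 6 tested genes in the list of sex-linked genes used here 0 were called by limma, with 0 higher and 1 lower at an unadjusted p under 0.05. Over all genes 6.18% were higher and 6.73% lower at that threshold. The list does not hold Heph and Klhl4, the 2 called genes of the X chromosome (0.573% of 349 tested, beside 0.421% of all genes). Xist, the RNA that coats an inactive X chromosome, stood at 3198 and 2453 in the rescue-labelled arrays and at 5808, 4736 and 3902 in the knockout-labelled arrays on its brightest probe set (-0.80 ± 0.24 log2, adjusted p = 0.241). Its 3 probe sets all had negative differences. The 9 probe sets of the Y-linked genes Eif2s3y, Kdm5d and Uty read 0.486 to 92.9 in the 5 arrays, in the range of dim probe sets.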

How the data were processed

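Total RNA was labelled with biotin and hybridised to Affymetrix mouse arrays, per the labels' protocols. The authors deposited 1 linear intensity per probe set and array, while the sources used here do not name the summarisation software. The mean after trimming 2% at each end was 500.003 to 500.004 in every array. Intensities were floored at 1 (4935 values), taken to log2 and quantile normalized over 10 arrays, 64 control probe sets were left out, and 34945 probe sets had 1 symbol (932 had several, 9160 none). Each of 18193 genes was represented by its brightest probe set on average, and the brightest 60% of genes (10916) were tested. limma 3.58.1 (R 4.3.3) fitted 1 mean per group over all 10 arrays (6 residual degrees of freedom), and calls were Benjamini-Hochberg adjusted p under 0.05. Precision is limited by how few arrays there are.

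Deviations from the group mean correlated at 0.721, 0.376, 0.552, 0.370 and 0.370 between arrays with adjoining numbers. The last 2 values, of the rescue-labelled pairs, are equal by construction, since each of those groups has 2 arrays. They count as 1. The pair was therefore used as a random block (correlation 0.716, statmod 1.5.0). Its adjusted p, or their range, is given for calls it ended. Named genes were Hspa1a and Hspa1b, up to 15 called genes each way with the largest differences and no overlap, up to 3 called members per list, in lists without a call the member with the smallest p, and Xist, Y-linked genes and Cdkn2a. Others are said to be picked after their values were seen. Members and lists were chosen with earlier results of these data known. Alternatives were the deposited scaling, centring on medians, no or a stricter filter, the mean of probe sets, a floor at 32, the arrays of the contrast alone, robust moderation, a 2-fold minimum, leaving out each array, and, chosen after the data were seen, leaving out the pair numbered 5 and 6.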

Additional observations from a re-analysis of the deposited data

How the results depend on the processing

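The block by pairs of adjoining array numbers gave 22 calls between the unheated lines, 16 between the preshocked lines and 0 for the change with preshock. Counts of calls between the unheated lines that moved by over 1.5 times were 10 with no filter on dim genes, 20 with the mean of all probe sets of a gene, 0 with the 5 arrays alone (1170 at an unadjusted p under 0.05) and 85 without the pair numbered 5 and 6, and between the preshocked lines 22 with arrays centred on their medians, 6 with no filter, 23 with the 40% brightest genes, 9 with the mean of probe sets, 67 with a floor at 32, 3 with the 5 preshocked arrays alone and 58 without the pair. Leaving out 1 array gave 3 to 43 calls unheated and 0 to 37 preshocked. The change with preshock had 1 call with no filter and 1 without rescue-labelled preshocked replicate 2. Deposited scaling gave 44 unheated calls (7 higher, 15.9%, beside 26.1%), and centring on medians 32 (59.4% higher). Of the 46 called genes 45 kept their sign in the alternatives that can move a difference and in which they were tested, and Sqor turned to 0.144 log2 with the mean of its probe sets. The cause of these changes was not tested. The number of arrays and the unknown signal over background limit dim genes most.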

Other observations

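Several lists outside the comparisons above held values without a call by limma. The counts at an unadjusted p under 0.05 stand beside 6.18% higher and 6.73% lower of all genes. Of 14 Hox genes tested 0 were called (1 higher and 1 lower at an unadjusted p under 0.05). Hoxb3 read 606 and 548 in the rescue-labelled arrays and 737, 1018 and 1173 in the knockout-labelled arrays (-0.77 ± 0.19 log2, adjusted p = 0.161). Of 16 cytokines, chemokines and complement genes 0 were called (3 higher and 3 lower at an unadjusted p under 0.05). Il18, an inflammatory cytokine, read 137 and 122 against 68.8, 98.4 and 131 (0.76 ± 0.16 log2, adjusted p = 0.113). Of 23 interferon-stimulated genes 0 were called (0 higher and 1 lower), and Ifit3 read 56.4 and 74.99 against 107, 166 and 206 (-0.86 ± 0.32 log2, adjusted p = 0.321). Of 31 genes of TGF-beta and BMP signalling 0 were called (2 higher and 4 lower), and Bmper, a secreted BMP-binding protein, read 284 and 277 against 586, 538 and 830 (-1.17 ± 0.22 log2, adjusted p = 0.0781).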
